A study of Rattus norvegicus with 8 samples.

Results

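The transcripts of the matrix metalloproteinases (MMPs), of the ADAMTS proteases and the related ADAMTS-like (ADAMTSL) proteins, and of the tissue inhibitors of metalloproteinases (TIMPs) were followed in rat spinal cord. Members were all probe sets whose single gene symbol in the platform annotation is Mmp, Adamts, Adamtsl or Timp with a number. The rule gave 40 probe sets for 39 genes, of 29214 probe sets and 14506 genes with a symbol in all: 21 Mmp, 11 Adamts, 3 Adamtsl and 4 Timp genes. Each gene was measured by 1 probe set, apart from Adamts3, which is the mean of 2.

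The arrays came from adult male Wistar rats whose L5 spinal nerve had been ligated and transected, and all 8 arrays are from such injured animals. The 4 rats of the HDACI group received MS-275, a histone deacetylase inhibitor (HDACI) selective for class I enzymes, into the intrathecal space from an osmotic pump at 30 nmol/d, starting before the injury. The 4 rats of the vehicle group received DMSO in saline solution through the same kind of pump. Dorsal ipsilateral lumbar cord was taken at day 14 and hybridized to Rat Gene 1.0 ST arrays, with 1 array for each biological replicate. Every group carries the injury and a catheter, and no uninjured or contralateral cord is compared here. The values therefore compare drug with vehicle in injured cord, and the effect of the injury itself cannot be read from them. A drug effect on the response to injury and one that does not depend on injury cannot be told apart. Array medians lay between 7.95 and 7.98 on the log2 scale, and arrays correlated at 0.993 to 0.997 over all probe sets. All 9 neuronal and all 4 measured dorsal horn genes stood above the background mark defined below (6.93). Since 76.5% of all genes passed that mark, this does not identify the tissue. The sensory neuron list is not a marker of cord tissue. Of its 4 measured genes, Scn10a and Scn11a did not exceed the mark. Mrgprd (means 7.41 in HDACI and 7.51 in vehicle arrays) and Trpv1 (7.56 and 7.49) did. The 2 measured motor neuron genes, Slc5a7 and Isl1, both exceeded the mark. Their log2 differences were -0.75 and -0.23 (unadjusted p = 0.0368 and 0.0436, adjusted p = 0.628 and 0.640 from limma), and the groups overlapped in both. Vehicle replicate 2 was the highest array for both genes. For Slc5a7 it read 10.49, against 9.75 in vehicle replicate 1, the next highest array. The part of motor neuron content in these differences was not tested.

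MMPs are zinc-dependent proteases that are made as inactive zymogens and cut collagens, gelatin, laminins and many cell surface proteins once their prodomain is removed. ADAMTS proteases carry thrombospondin repeats that place them in the matrix, where several of them cut the hyaluronan-binding proteoglycans around neurons or trim procollagens. ADAMTSL proteins share these repeats but have no protease domain, and several bind fibrillin microfibrils. TIMPs sit in the active site of MMPs and, in part, of ADAMTS and ADAM proteases. After nerve injury, MMP9 and MMP2 are known for roles in cytokine processing and glial activation in rodent ganglia and cord.

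A set of 9 members lie side by side on rat chromosome 8, in the order Mmp13, Mmp12, Mmp3, Mmp1, Mmp10, Mmp8, Mmp27, Mmp20 and Mmp7, with Mmp1b, which is not a member, between Mmp12 and Mmp3. Their promoters share sequence elements that the rule did not use. The last 100 bases before each transcription start are shown because none of these neighbours exceeded the background mark described below. They come from RefSeq (build GRCr8) and run 5′ to 3′ on the gene's strand. Capitals mark TGANTCA, the binding sequence of AP-1, and TATAAA, the TATA box.
Mmp13 (chr8:12782729-12782828, plus strand): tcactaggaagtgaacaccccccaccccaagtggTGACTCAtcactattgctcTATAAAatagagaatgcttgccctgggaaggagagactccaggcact
Mmp12 (chr8:12866552-12866651, plus strand): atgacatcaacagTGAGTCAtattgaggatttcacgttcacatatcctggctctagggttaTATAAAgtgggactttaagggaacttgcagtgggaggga
Mmp3 (chr8:12925181-12925280, plus strand): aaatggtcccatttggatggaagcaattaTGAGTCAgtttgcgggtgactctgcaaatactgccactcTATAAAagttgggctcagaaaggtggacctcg
Mmp1 (chr8:12943353-12943452, plus strand): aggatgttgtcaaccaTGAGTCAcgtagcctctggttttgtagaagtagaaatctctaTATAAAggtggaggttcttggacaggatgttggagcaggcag
Mmp10 (chr8:12974607-12974706, plus strand): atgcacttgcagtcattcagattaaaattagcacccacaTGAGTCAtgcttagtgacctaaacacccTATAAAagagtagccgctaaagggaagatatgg
Mmp8 (chr8:13008790-13008889, plus strand): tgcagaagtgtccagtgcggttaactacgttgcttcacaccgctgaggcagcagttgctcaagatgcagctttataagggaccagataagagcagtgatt
Mmp27 (chr8:13030652-13030751, plus strand): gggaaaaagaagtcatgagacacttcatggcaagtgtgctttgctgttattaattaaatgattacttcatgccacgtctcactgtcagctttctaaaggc
Mmp20 (chr8:13074179-13074278, plus strand): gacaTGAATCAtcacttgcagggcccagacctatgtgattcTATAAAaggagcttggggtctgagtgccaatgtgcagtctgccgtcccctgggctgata
Mmp7 (chr8:13132943-13133042, plus strand): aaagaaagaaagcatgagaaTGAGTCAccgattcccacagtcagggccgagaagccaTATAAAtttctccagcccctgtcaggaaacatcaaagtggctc
In the 250 bases before the start, 7 of these 9 promoters held TGANTCA, which is its own reverse complement and so covers both strands, and the same 7 held TATAAA on the gene strand. Mmp8 and Mmp27 held neither. Over all 33469 RefSeq promoters of this length, 6.34% held TGANTCA, 8.06% TATAAA on the gene strand and 0.693% both. TATAAA on the opposite strand was found for 2 of the 9 and in 6.56% of all promoters. A further 21 members had a promoter in the table, of which 0 held TGANTCA and 2 held TATAAA on the gene strand. The GC box GGGCGG, searched on both strands, was in 15 of these 21, in 0 of the 9 neighbours and in 30.5% of all promoters. A pair of such promoters is shown for contrast, those of Adamtsl4 and Mmp11. Both are among the 6 members with an unadjusted p under 0.05 in limma, described below, with adjusted p of 0.610 and 0.626. Of the same 6, Mmp3 is among the 9 neighbours, and Adamts3 holds the GC box but was lower with HDACI. Adamtsl5 was higher with HDACI and its promoter holds no GC box. Mmp19 was also higher but had no promoter to search. No link between these elements and the differences was tested. Capitals mark the GC box.
Adamtsl4 (chr2:185935797-185935896, minus strand): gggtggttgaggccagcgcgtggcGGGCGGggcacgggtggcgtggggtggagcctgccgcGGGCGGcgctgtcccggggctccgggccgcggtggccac
Mmp11 (chr20:12730184-12730283, plus strand): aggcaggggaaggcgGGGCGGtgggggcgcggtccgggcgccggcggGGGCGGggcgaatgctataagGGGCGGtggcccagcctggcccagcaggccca
These matches are descriptions of the letters and not binding sites.

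The signal of the 9 neighbours was low in both groups. As a mark of background, the 95th percentile of the mean signals of 1105 olfactory receptor genes, which the cord is not known to use, was taken. It was 6.93 on the log2 scale, and 76.5% of all genes exceeded it in at least 1 group. Of the members, 27 exceeded it and 12 did not: the 9 neighbours on chromosome 8, Mmp9, Mmp21 and Adamts14. For these 12 neither a level nor its difference is shown to lie above background. The mark is a percentile of other probe sets and not a detection call. Neutrophils are a cell type that stores MMP8 and MMP9. Of their 6 listed markers 1 exceeded the mark (Elane), while Mpo, S100a8, S100a9, Ngp and Camp did not. The summed linear signal of these 6 ran from 489 to 512 in HDACI arrays and from 470 to 585 in vehicle arrays.

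To ask whether the inhibitor changed these transcripts, HDACI and vehicle were compared with limma over all 14506 genes. No member had an adjusted p under 0.05, and neither did any of the other genes in this fit (0% of all genes). The study itself reports a mitochondrial transfer RNA under that threshold in cord, from a fit over all probe sets. The fit here took only probe sets with 1 symbol. The smallest adjusted p of a member was 0.610. At an unadjusted p under 0.01, the threshold used in the study beside the adjusted one, 0 of 39 members were called, against 1.46% of all genes. At an unadjusted p under 0.05, 4 members were higher with HDACI (2.79% of all genes were) and 2 lower (4.96% of all genes were), 6 of 39 in all or 15.4%, against 7.75% of all genes. In none of the 39 did the groups separate without overlap, which 5.02% of all genes did. The median log2 difference was 0.02 over the members and -0.01 over all genes, with 22 members above 0 and 17 below. Of the 27 members above the background mark 19 were above 0, and of the 12 others 3 were. Of all genes 42.1% were above 0, and of all genes above the mark 43.9%. With 4 against 4 arrays, the smallest two-sided p of an exact permutation test is 0.0286. Differences are given on the log2 scale as HDACI minus vehicle, and the plot of all 39 differences shows them with their intervals by role.

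**Figure D1:**
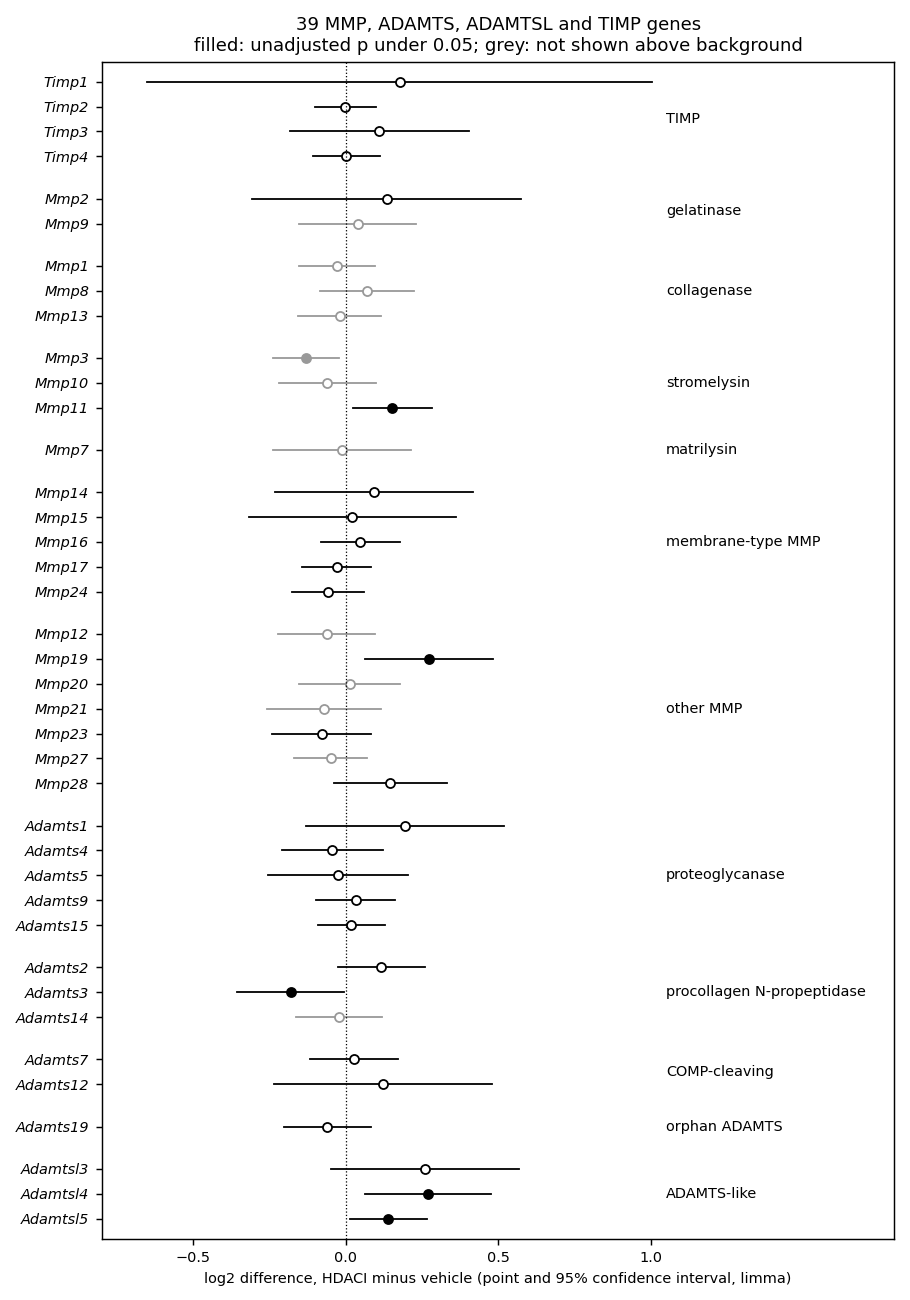
The log2 difference, HDACI minus vehicle, is plotted on the x axis for each of the 39 members with its 95% confidence interval from limma (4 arrays per group), grouped by role. Filled points are the 6 members with an unadjusted p under 0.05, grey ones the 12 at or below the background mark. The widest interval is that of Timp1, from -0.65 to 1.01.

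Of the inhibitors, Timp1, the inducible member of the family and a classical injury gene of glia and fibroblasts, read 9.73, 11.30, 10.12 and 10.17 in HDACI arrays and 10.54, 10.77, 9.41 and 9.87 in vehicle arrays. The groups overlapped over most of their range, and the highest and lowest of the 8 arrays stood 1.88 apart. Its log2 difference was 0.18 (standard error 0.37, 95% confidence interval -0.65 to 1.01, unadjusted p = 0.643 from limma, exact permutation p = 0.743). The direction rested on single arrays: the difference was -0.15 without HDACI replicate 2 and -0.07 without vehicle replicate 3. Timp3, which is held in the matrix by its binding to heparan sulfate, read 10.81, 11.41, 10.98 and 11.02 in HDACI arrays and 11.06, 11.13, 10.90 and 10.70 in vehicle arrays. The difference was 0.11 (standard error 0.13, 95% confidence interval -0.18 to 0.40, exact permutation p = 0.543), and -0.01 without HDACI replicate 2.

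The other two inhibitors were steady across the 8 arrays. Timp2, which besides inhibiting MMPs takes part in the activation of pro-MMP2 by MMP14, read 12.13, 12.12, 12.12 and 12.05 in HDACI arrays and 12.10, 12.18, 12.04 and 12.09 in vehicle arrays. Its difference was -7.9e-04 with an interval from -0.10 to 0.10 (exact permutation p = 1). Timp4 read 10.52, 10.44, 10.56 and 10.54 in HDACI arrays and 10.51, 10.44, 10.50 and 10.60 in vehicle arrays, a difference of 0.0021 with an interval from -0.11 to 0.11 (exact permutation p = 0.971). For these 2 genes the intervals hold no change in either direction of more than 0.11, whereas for Timp1 differences up to 1.01 and down to -0.65 lie within the interval.

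Among the gelatinases, which cut denatured collagen and basement membrane, Mmp2 is the constitutive enzyme. It read 9.19, 9.73, 9.26 and 9.38 in HDACI arrays and 9.54, 9.60, 8.69 and 9.20 in vehicle arrays, and the vehicle arrays spanned the wider range. The log2 difference was 0.13 (standard error 0.20, 95% confidence interval -0.31 to 0.58, exact permutation p = 0.657), and it was -0.05 without vehicle replicate 3. Mmp14, the membrane-type enzyme that activates pro-MMP2 at the cell surface, read 8.71, 8.998, 8.53 and 8.57 in HDACI arrays and 8.72, 8.94, 8.28 and 8.51 in vehicle arrays. Its difference was 0.09 (standard error 0.14, exact permutation p = 0.571), with values of -0.0047 without HDACI replicate 2 and -0.02 without vehicle replicate 3. The inducible gelatinase Mmp9 was not shown to lie above background, with 6.40, 6.52, 6.32 and 6.46 in HDACI arrays and 6.32, 6.20, 6.62 and 6.40 in vehicle arrays (difference 0.04, exact permutation p = 0.657).

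The remaining classes of MMPs held the members with the larger differences. Mmp19, a secreted enzyme of vessels and skin that cuts basement membrane proteins, read 7.59, 7.90, 7.52 and 7.87 in HDACI arrays and 7.37, 7.57, 7.48 and 7.36 in vehicle arrays. HDACI replicates 1, 2 and 4 lay above every vehicle array, the first of them by a narrow margin, and HDACI replicate 3 lay below the highest vehicle array. The log2 difference was 0.27 (standard error 0.09, 1.21-fold, unadjusted p = 0.0167, adjusted p = 0.610 from limma, exact permutation p = 0.0571). Leaving out each array in turn, its unadjusted p stayed under 0.05 in 7 of 8 fits and was 0.0507 without HDACI replicate 4.

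Mmp11, called stromelysin 3 and unusual in leaving the Golgi in active form, read 7.45, 7.58, 7.72 and 7.55 in HDACI arrays and 7.40, 7.39, 7.44 and 7.45 in vehicle arrays. Only HDACI replicate 1 reached into the vehicle range, by less than the second decimal. Its difference was 0.15 (standard error 0.06, unadjusted p = 0.0242, adjusted p = 0.626 from limma, exact permutation p = 0.0571), and the unadjusted p passed 0.05 without HDACI replicate 3 (0.0624), vehicle replicate 1 (0.0534) or vehicle replicate 2 (0.0529). Mmp3, stromelysin 1, which activates other MMPs, read 6.32, 6.45, 6.51 and 6.41 in HDACI arrays and 6.59, 6.51, 6.54 and 6.57 in vehicle arrays. Its difference of -0.13 (standard error 0.05, unadjusted p = 0.0247 from limma, exact permutation p = 0.0571) lies in signal not shown to exceed background. It lost its unadjusted p under 0.05 without HDACI replicate 1 (0.0706), HDACI replicate 4 (0.0558) or vehicle replicate 1 (0.0633), under the replicate block (0.0594) and with a trended and robust eBayes (0.0511).

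Of the negative differences of MMPs, that of Mmp23, a membrane-anchored enzyme with a short transcript, was the next in size. It read 7.24, 7.30, 7.34 and 7.43 in HDACI arrays and 7.44, 7.46, 7.52 and 7.21 in vehicle arrays, a difference of -0.08 (standard error 0.07, exact permutation p = 0.343). Vehicle replicate 4 was the lowest of all 8 arrays, and without it the difference was -0.15 (unadjusted p = 0.0259 from limma). Mmp21 (6.54, 6.40, 6.68 and 6.61 in HDACI arrays, 6.72, 6.50, 6.51 and 6.79 in vehicle arrays) and the macrophage elastase Mmp12 (5.85, 6.02, 5.91 and 5.95 in HDACI arrays, 6.03, 5.81, 6.01 and 6.13 in vehicle arrays) were not shown to lie above background. Their differences were -0.07 and -0.06, with an exact permutation p of 0.457 each. Over the 9 neighbours on chromosome 8, differences ran from -0.13 (Mmp3) to 0.07 (Mmp8), 7 of them below 0, with a median of -0.03. In the 3 collagenases (Mmp1, Mmp8 and Mmp13) and the 5 membrane-type enzymes 0 members had an unadjusted p under 0.05.

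**Figure D2:**
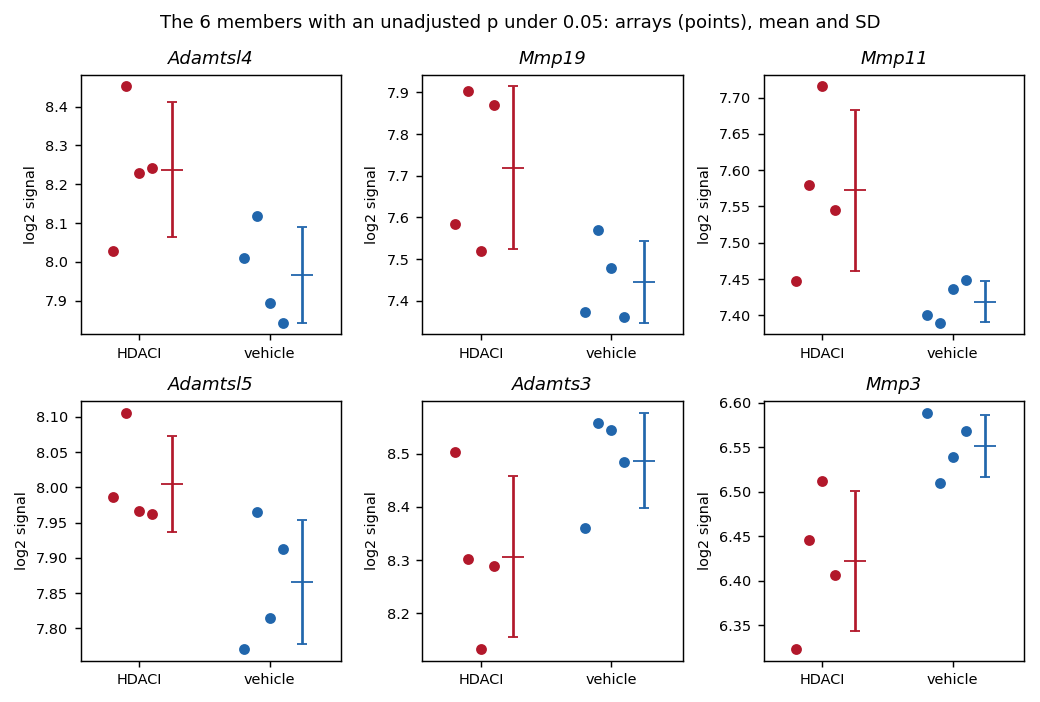
Log2 signal on the y axis for the 6 members with an unadjusted p under 0.05 in limma: points are the 4 HDACI and 4 vehicle arrays, and the dash with bars is the mean with its SD. In each panel at least 1 HDACI array lies within the range of the vehicle arrays or a vehicle array within that of HDACI, and the y axes differ between panels and do not start at 0.

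All 3 measured ADAMTSL genes had positive differences, with a median of 0.26. Adamtsl4, a fibrillin-binding protein known from the human lens zonule, read 8.03, 8.45, 8.23 and 8.24 in HDACI arrays and 8.01, 8.12, 7.89 and 7.84 in vehicle arrays. The 3 higher HDACI arrays lay above every vehicle array and HDACI replicate 1 among them. Its log2 difference was 0.27 (standard error 0.09, 95% confidence interval 0.06 to 0.48, 1.21-fold, unadjusted p = 0.0155, adjusted p = 0.610 from limma, exact permutation p = 0.0571). It was the member that kept an unadjusted p under 0.05 in 8 of 8 fits that left out an array each, at 0.0450 or less and with differences from 0.20 to 0.34.

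Adamtsl5 read 7.99, 8.11, 7.97 and 7.96 in HDACI arrays and 7.77, 7.96, 7.82 and 7.91 in vehicle arrays, touching at the second decimal. The difference was 0.14 (standard error 0.06, unadjusted p = 0.0339, adjusted p = 0.628 from limma, exact permutation p = 0.0571), and it lost an unadjusted p under 0.05 without HDACI replicate 1 (0.0513) or 2 (0.0906) and without vehicle replicate 1 (0.0972) or 3 (0.0853). Adamtsl3, called punctin 2, read 7.39, 8.08, 7.58 and 7.42 in HDACI arrays and 7.39, 7.46, 7.35 and 7.23 in vehicle arrays. HDACI replicate 2 stood apart: the difference was 0.26 with it (standard error 0.14, unadjusted p = 0.0883 from limma, exact permutation p = 0.143) and 0.11 without it. With the replicate number as a block, Adamtsl3 had an unadjusted p of 0.0285.

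Among the ADAMTS proteases, Adamts3, which removes the N-propeptide of procollagens and, in mice, cleaves reelin, read 8.50, 8.30, 8.13 and 8.29 in HDACI arrays and 8.36, 8.56, 8.54 and 8.49 in vehicle arrays. HDACI replicate 1 lay inside the vehicle range and the other 3 below it. The difference was -0.18 (standard error 0.08, unadjusted p = 0.0453, adjusted p = 0.640 from limma, exact permutation p = 0.0857). Its 2 probe sets gave like values when fitted over all 29214 probe sets, -0.18 (standard error 0.07) and -0.18 (standard error 0.09). The unadjusted p passed 0.05 when HDACI replicate 2, 3 or 4 or vehicle replicate 2, 3 or 4 was left out, up to 0.129 without HDACI replicate 3, where the difference was -0.12. It also passed 0.05 with the replicate number as a block (0.0800), with unmoderated variances (0.0860), after a further quantile normalization (0.0534) and after centring on the array medians (0.0561). The other procollagen N-propeptidases, Adamts2 and Adamts14, were not among the called members, and Adamts14 was not shown to lie above background.

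The proteoglycanases cut aggrecan, brevican, neurocan and versican, which form the perineuronal nets. None of the 5 measured had an unadjusted p under 0.05. Adamts1 read 8.36, 8.88, 8.56 and 8.17 in HDACI arrays and 8.34, 8.44, 8.05 and 8.36 in vehicle arrays, a difference of 0.19 (standard error 0.14, exact permutation p = 0.343). It was 0.06 without HDACI replicate 2 and 0.30 without HDACI replicate 4, where the unadjusted p from limma was 0.0496. Adamts4, which cuts brevican in the brain, read 10.35, 10.67, 10.43 and 10.55 in HDACI arrays and 10.62, 10.60, 10.48 and 10.46 in vehicle arrays (difference -0.04, 95% confidence interval -0.21 to 0.12, exact permutation p = 0.600). Adamts5, the main aggrecanase of mouse cartilage, read 7.88, 8.37, 8.13 and 7.98 in HDACI arrays and 8.11, 8.28, 8.04 and 8.03 in vehicle arrays (difference -0.03, 95% confidence interval -0.26 to 0.20, exact permutation p = 0.857). The 19 members not given array by array had differences between -0.06 and 0.15 and unadjusted p values of 0.0966 or more, 10 above 0 and 9 below.

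The arrays that were highest or lowest were often the same ones from member to member. HDACI replicate 2 was the highest of the 8 arrays for 15 of the 27 members above background. The arrays that were lowest most often were vehicle replicate 4, for 8 members, and vehicle replicate 3, for 6. The map of deviations shows this as a column of raised values in HDACI replicate 2. That array was also the highest in the list means of red cell, endothelial and mural genes, all above the mark. The mean of the 2 red cell genes was 9.54 there, against 7.51 to 8.77 in the other arrays. That of the 7 endothelial genes was 9.35, against 9.03 to 9.19, and that of the 7 mural genes 10.05, against 9.68 to 9.87. Of single genes, Cldn5 was highest in vehicle replicate 4 and Abcc9 in vehicle replicate 1. The summed linear signals of the red cell list ran from 527 to 2862 in HDACI arrays and 490 to 1376 in vehicle arrays. Those of the endothelial list ran from 4099 to 5026 in HDACI arrays and 4202 to 4567 in vehicle arrays. For mural cells they ran from 8169 to 10063 in HDACI arrays and 8127 to 8336 in vehicle arrays. By smaller margins HDACI replicate 2 was highest in the means of the macrophage, microglia, oligodendrocyte and oligodendrocyte precursor lists. It was the lowest in the mean of the neuronal list (11.22, against 11.40 to 11.50). The part of these cells in the members' differences was not tested.

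**Figure D3:**
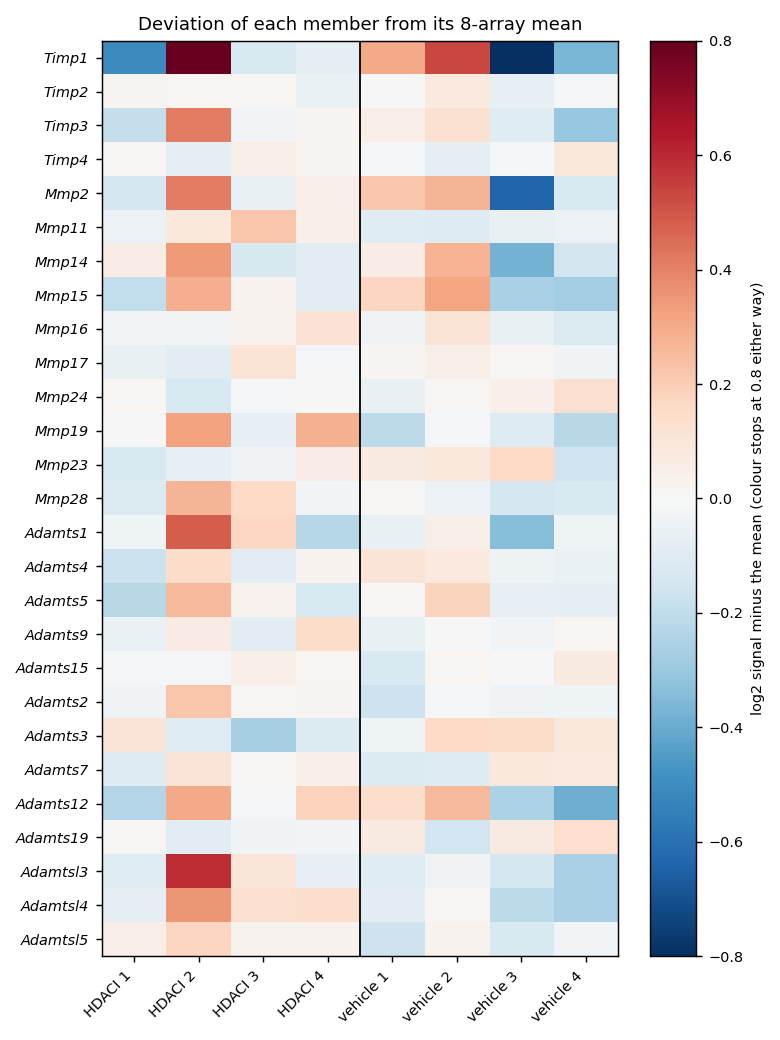
Each row is 1 of the 27 members above background and each column an array, HDACI at the left and vehicle at the right of the line. The colour is the log2 signal minus that member's mean over 8 arrays, with colours ending at 0.8 either way, and HDACI replicate 2 holds the highest value of 15 rows.

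Timp1, Mmp2, Mmp14 and Mmp15, a further membrane-type enzyme, were among the members most like each other from array to array. Timp1 and Mmp2 ranked the 8 arrays in the same order (Spearman's rho = 1, Pearson's r = 0.933). Without HDACI replicate 2 and vehicle replicate 3, the arrays farthest from the median of Mmp2, r was 0.976. Timp1 and Mmp15 correlated at r = 0.924 (rho = 0.881), and at 0.884 without HDACI replicate 2 and vehicle replicate 2. Mmp14 correlated with Timp1 at r = 0.882 (rho = 0.857) and with Mmp2 at r = 0.904 (rho = 0.857), with r = 0.674 and 0.716 without HDACI replicate 2 and vehicle replicate 3. In all, 10 relations were computed over the 8 arrays. The pairs were chosen after the values were seen, so these correlations are descriptions with no test.

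These members were set beside markers of the meninges and of the nerve roots, tissue that can stay attached to dissected cord. In bulk samples fewer cells of a type and less RNA per cell cannot be told apart. Of 11 measured markers of leptomeningeal fibroblasts, the cells that line the cord, 10 stood above background (Crabp2 did not) and 7 had a positive difference, with a median of 0.19 and 0 of the 11 at an unadjusted p under 0.05. Their mean signal ran from 8.52 to 9.56 in HDACI arrays, highest in HDACI replicate 2, and from 8.63 to 9.15 in vehicle arrays, highest in vehicle replicate 2. Their summed linear signal ran from 5928 to 13455 in HDACI arrays and from 6418 to 11255 in vehicle arrays.

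Timp1 followed this mean at r = 0.919 (rho = 0.881), and at r = 0.712 without HDACI replicate 2 and vehicle replicate 2, the arrays farthest from the median for this and the next comparisons. Mmp15 followed it at r = 0.810 (rho = 0.810), and at 0.620 without those arrays. Mmp2 gave r = 0.748 (rho = 0.881) and 0.539 without them. For Mmp14 the relation rested on those arrays, with r = 0.740 (rho = 0.619) but 0.0266 without them. Adamtsl4 gave r = 0.766 (rho = 0.738) and 0.515 without them. Mmp19 gave r = 0.570 (rho = 0.452), which likewise rested on those arrays, with 0.0623 without them. The listed markers did not move as one. In vehicle replicate 1, where Timp1 read 10.54, Igf2 (8.57), Aldh1a2 (7.48) and Slc6a13 (8.65) were at their lowest of the 8 arrays. Dcn (11.82) and Lum (8.42) were near their highest there. These correlations therefore hold for the mean of the list and not for each marker in it. The part of leptomeningeal tissue in the differences of Adamtsl4 and Mmp19 was not tested.

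The Schwann cell markers Pmp22 and Prx fell into a high and a low set of arrays, so no correlation with them is given. Their mean was 10.03, 11.84, 11.08 and 9.81 in HDACI arrays and 11.51, 11.69, 9.66 and 10.27 in vehicle arrays, with 0 of the 2 at an unadjusted p under 0.05. The summed linear signal of the 2 ran from 4548 to 15234 in HDACI arrays and from 4252 to 13681 in vehicle arrays. HDACI replicates 2 and 3 and vehicle replicates 1 and 2 were the high arrays, and the arrays highest for Timp1 (HDACI replicate 2, vehicle replicate 2 and vehicle replicate 1) were among them. With HDACI replicate 2 and vehicle replicate 2 left out, the array of each group highest for these markers, Adamtsl4, Adamtsl5, Mmp19 and Mmp3 kept an unadjusted p under 0.05, Mmp11 (0.0848) and Adamts3 (0.147) did not, and Adamts19, which is above the mark, and Mmp12 (0.0218), which is not, gained one.

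**Figure D4:**
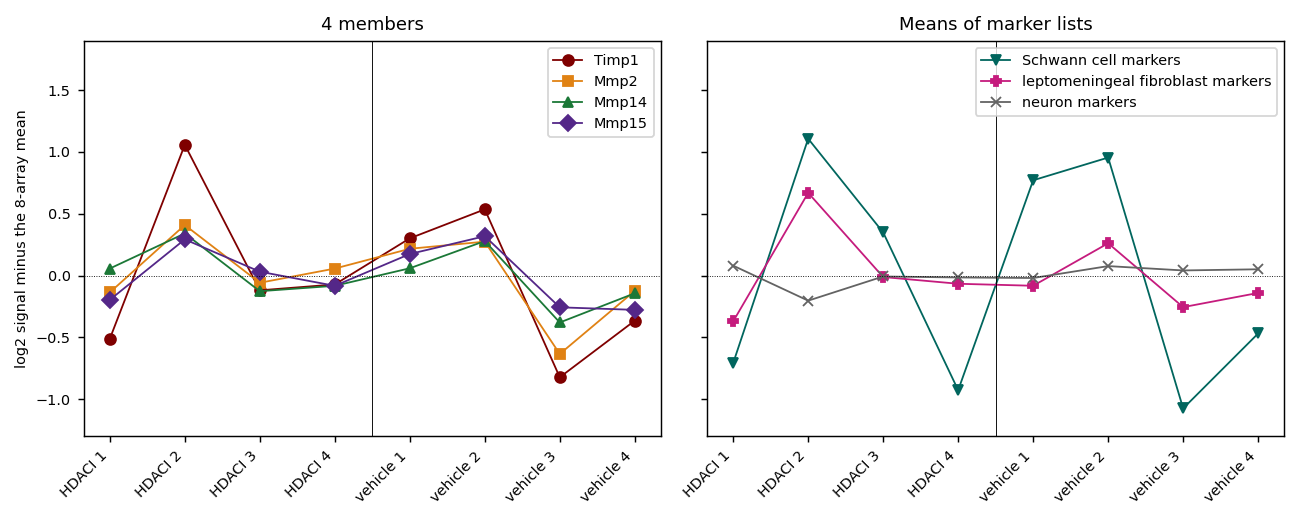
Log2 signal minus the 8-array mean on the y axis against the 8 arrays, for Timp1, Mmp2, Mmp14 and Mmp15 at the left and for the means of the Schwann cell, leptomeningeal fibroblast and neuron markers at the right. HDACI replicate 2 is the highest array for Timp1 (11.30) and for both non-neuronal lists (11.84 and 9.56), and vehicle replicate 3 is the lowest for Timp1 (9.41).

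After the group means were taken out, the genes most like Timp1 over the 8 arrays, of 11103 above background, were Gpx8 (r = 0.994), a peroxidase of the endoplasmic reticulum, Maoa (0.993), which degrades monoamines, Uxt (0.993), Slc44a2 (0.993) and S100a4 (0.987), a calcium-binding protein of fibroblasts and myeloid cells. Those most like Mmp2 were Casp1 (0.986), the protease that processes interleukin 1 beta, Slc4a2 (0.979), Zfp954 (0.974), Nuak2 (0.971) and Eci1 (0.970). Those most like Mmp14 were Itprid2 (0.984), C13h1orf74 (0.972), Pdcl3 (0.970), the sheddase Adam9 (0.969) and Tmem167b (0.966). These are descriptions over 8 arrays, and each list is the top of a ranking of 11103 values. Among the members, those most like Timp1 were Mmp2 (0.933), Mmp15 (0.929) and Adamtsl4 (0.914).

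Of 49 listed genes that activate, restrain or are cut by these proteases, 41 were measured, with a median difference of 0.02. At an unadjusted p under 0.01, 2 were higher with HDACI (0.607% of all genes were) and 1 lower (0.855% of all genes were). Neurocan (Ncan), a hyaluronan-binding proteoglycan of the nervous system and an ADAMTS substrate, was higher with HDACI, with 10.32, 10.57, 10.43 and 10.53 in HDACI arrays and 10.22, 10.30, 10.22 and 10.30 in vehicle arrays. Its log2 difference was 0.20 (standard error 0.06, unadjusted p = 0.00838, adjusted p = 0.610 from limma). Hapln1, the link protein that ties such proteoglycans to hyaluronan, was lower with HDACI, with 8.17, 8.19, 8.24 and 8.15 in HDACI arrays and 8.37, 8.29, 8.38 and 8.48 in vehicle arrays. Its difference was -0.19 (standard error 0.05, unadjusted p = 0.00335, adjusted p = 0.610 from limma).

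The third was Junb, a subunit of AP-1. It read 8.95, 9.24, 8.93 and 9.04 in HDACI arrays and 8.83, 8.79, 8.74 and 8.77 in vehicle arrays, a difference of 0.26 (standard error 0.07, unadjusted p = 0.00417, adjusted p = 0.610 from limma). The other AP-1 subunits on the list had differences of 0.13 (Fos), 0.10 (Fosl2), -0.07 (Jun) and -0.02 (Fosl1), each with an unadjusted p over 0.05. Subunits not on the list were not looked up, and no link between Junb and the members was tested. The groups did not overlap in 5 of the 41 genes, 4 higher and 1 lower, against 5.02% of all genes. These were Ncan, Hapln1, Junb, Fbn1 and Fn1 (exact permutation p = 0.0286 each). Fbn1 read 8.24, 8.94, 8.35 and 8.46 in HDACI arrays and 8.21, 8.18, 8.15 and 8.14 in vehicle arrays (standard error 0.13, unadjusted p = 0.0303, adjusted p = 0.627 from limma). Fibronectin (Fn1), an MMP substrate, read 10.13, 11.22, 10.05 and 10.11 in HDACI arrays and 9.74, 9.94, 9.90 and 9.97 in vehicle arrays, a difference of 0.49 (standard error 0.23, unadjusted p = 0.0628, adjusted p = 0.650 from limma). In both genes HDACI replicate 2 was the highest array. Fbn1, Fn1 and the other listed AP-1 subunits were named after their values were seen. At an unadjusted p under 0.05 but not 0.01 were Tfpi2, an inhibitor of proteases that activate MMPs (0.18, not shown above background), Spock3, a testican proteoglycan (-0.16), Pcsk6, a furin-like convertase (0.21), and Fbn1, the fibrillin to which ADAMTSL proteins bind (0.33). The count of listed genes higher at an unadjusted p under 0.01 was 0 without HDACI replicate 4, vehicle replicate 3 or vehicle replicate 4 and 4 without HDACI replicate 1. The count of those lower was 0 without HDACI replicate 4 and 2 without vehicle replicate 2.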

How the data were processed

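Log2 values were analysed as deposited. To make them, the authors ran RMA in the R package oligo on the Rat Gene 1.0 ST scans, which corrects background, equalizes the arrays by quantiles and summarizes each probe set. Software versions for that step: not given in the sources used here. Scans were left out. Groups and replicate numbers came from the sample labels. The study reports biological replicates, 1 array each, and the number of arrays limits the precision.

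Probe sets with 1 symbol (15310 of 29214) were averaged per gene, and symbols were updated by Entrez number through the RefSeq table of GRCr8, which held all 39 members. HDACI and vehicle were compared over 14506 genes by limma 3.58.1 (lmFit, then eBayes; R 4.3.3), without filter, weights or block, two-sided, with Benjamini-Hochberg adjustment over all genes. The median SD within groups was 0.09. Because RMA equalizes the arrays, a shift of most transcripts together is removed, and dim probe sets show compressed differences. Exact permutation tests used all 70 assignments of the arrays. The script was tested on simulated data. The members and lists were chosen with earlier results of these data known.

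Values by array are given for the 4 Timp genes, Mmp2, Mmp9, Mmp14, Adamts1, Adamts4, Adamts5, members with an unadjusted p under 0.05 or without overlap, and the 5 largest differences in each direction. Up to 6 genes of each further list follow the same criteria. The alternatives tried were a trended and a robust eBayes, unmoderated variances, only genes above the median signal, a further quantile normalization, centring on the array medians, 1 probe set per gene (that of highest mean), array weights, the replicate number as a block, an unadjusted p under 0.05 and each array left out in turn. A fit without the array of each group highest for Schwann cell markers was chosen after seeing the data.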

Additional observations from a re-analysis of the deposited data

Results flagged for a closer look

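Of the 40 groups of 4 arrays that the 20 members given array by array form, 2 held an array far from its group by Dixon's ratio, and chance flags about 1 group in 20. Adamtsl5 read 8.11 in HDACI replicate 2, against 7.96 to 7.99 in the other HDACI arrays. Timp2 read 12.05 in HDACI replicate 4, against 12.12 to 12.13 in the other HDACI arrays.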

How the results depend on the processing

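With 4 arrays a group, members with differences near their SD cannot be called, and a p that misses the threshold does not show that a transcript was unchanged. The count of members at an adjusted p under 0.05 was 0 in every fit. The count of members higher at an unadjusted p under 0.01 was 0, but 1 after a further quantile normalization (Adamtsl4), 2 after centring on the array medians (Adamtsl4 and Mmp19), 1 with the replicate block (Adamtsl4) and 0 to 2 leaving out each array, and that of lower members 0 to 1 leaving out each array. Of all 14506 genes, in either direction, 248 had an unadjusted p under 0.01 after the further quantile normalization. There were 204 after centring and 187 with the replicate block, against 212 in the fit with none of these changes. At an unadjusted p under 0.05 instead, 4 members were higher and 2 lower, and 5 of 41 listed pathway genes were higher and 2 lower. Of all genes, 2.79% were higher and 4.96% lower at that threshold. Pathway genes higher numbered 2, but 3 after a further quantile normalization, 3 with the replicate block, 0 with no moderation of the variances, 1 without the arrays highest for Schwann cell markers and 0 to 4 leaving out each array. Pathway genes lower numbered 1 (Hapln1), but 0 after centring on the array medians, 0 with the replicate block and 0 to 2 leaving out each array. Among genes above the median signal the count was 0, but Hapln1 lay under that signal and was left out of that fit. The members' median of 0.02 ran from -0.017 (without vehicle replicate 3) to 0.045 leaving out each array. For genes given array by array, a change of sign occurred where the difference was small against its error: Timp2 had 0.024 after a further quantile normalization, 5.8e-04 after centring, 0.0038 with array weights and 0.020 without the arrays highest for Schwann cell markers, and Mmp9 -0.0036 with array weights and -0.052 without those arrays. Leaving out each array, differences ran from -0.15 to 0.38 for Timp1, -0.024 to 0.025 for Timp2, -0.0069 to 0.19 for Timp3, -0.023 to 0.032 for Timp4, -0.055 to 0.25 for Mmp2, -0.021 to 0.12 for Mmp9, -0.018 to 0.20 for Mmp14, -0.10 to 0.0067 for Adamts4 and -0.12 to 0.045 for Adamts5. Only 11 members stood above the median signal, and 0 of them had an unadjusted p under 0.05. The 6 members with an unadjusted p under 0.05 over all genes were not among these 11, so that fit did not test them. The replicate numbers are shared between the groups. Deviations of same-numbered arrays correlated from -0.34 to 0.42, over 0.1 in 2 of 4 pairs, and not every array correlated best with its own number. Arrays of unlike number spread as widely: HDACI replicate 2 correlated at 0.41 with vehicle replicate 1 and at -0.51 with vehicle replicate 3. These few values therefore cannot tell whether same-numbered arrays form pairs, and no pairing is stated in the labels. With the block, 951 genes had an unadjusted p under 0.05, against 1124 without it. Apart from the replicate block and the values above, the cause of a change was not tested.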
